A study of Mus musculus with 12 samples.

Results

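The genes described here encode the clathrin-mediated endocytosis machinery and proteins reported to bind Arc (Arc/Arg3.1) in neurons, measured in bone marrow-derived dendritic cells of Arc knockout and wildtype mice. A list of 37 genes was taken, and a member was measured where a probe set of the array carried that gene alone in the platform annotation. This held for 36 of the 37 members, out of 22180 genes tested, and Picalm is not analysed here. A member with several probe sets was represented by the brightest of them, averaged over the 12 arrays. The members fell into 4 roles, with 13 measured genes of the clathrin coat and its adaptors, 14 dynamins and proteins that work with them, 3 genes of endosomal recycling and caveolae, and 6 neuronal Arc partners.

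In clathrin-mediated endocytosis the adaptor complex AP-2 gathers cargo at the plasma membrane and recruits clathrin, proteins with curved domains shape the bud, and dynamin cuts its neck. Synaptojanin takes phosphate groups off phosphoinositides, a step that helps the coat to come off, and proteins of the EHD family return cargo from endosomes to the surface. In neurons, Arc protein binds dynamin, endophilins and AP-2 and takes part in the removal of glutamate receptors from synapses, and it also binds the kinase CaMKII. Dendritic cells take up antigen by several endocytic routes and change this uptake after contact with bacterial products.

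Mice were 8 weeks old, labelled male, on a C57BL/6 background, and either wildtype (WT) or Arc/Arg3.1 -/- (KO). Marrow cells of both genotypes were kept in GM-CSF at 20 ng/ml, a growth factor that drives dendritic cell development, and semi-adherent cells were harvested on day 7. Such a culture is a mixture and not a sorted population. Cells of each genotype then received medium alone or medium with LPS, a bacterial cell wall component sensed by Toll-like receptor 4, at 100 ng/ml for 30 min, followed by washing and 1 h in fresh medium. Each of the 4 groups has 3 arrays labelled as biological replicates, and the labels do not name the animals behind them. The p-values thus measure only the spread between these samples, which may be technical.

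Array medians of the log2 signal ran from 6.50 to 6.67. The 3 untreated WT arrays were closer to one another than the replicates of any other group: the SD of their pairwise differences, over the 6440 genes whose mean exceeded 8, was 0.105 to 0.108, against 0.193 to 0.438 in the other groups. They were counted as 1 sample, and results with 12 separate samples are given where a call changes. Statements on whether groups overlap take these 3 arrays separately. Groups lay apart for 30.2% of all genes between LPS-treated and untreated WT cells and for 25.1% in KO cells. Y-linked genes exceeded Xist on 3 arrays (KO untreated replicate 2, KO LPS replicate 2 and WT LPS replicate 1), although all mice are labelled male. The median signal of 82 small nucleolar and related RNA genes was 9.66 to 9.84 on 4 arrays (LPS replicates 2 and 3 of either genotype) and 10.43 to 11.04 elsewhere. Leaving out these 4 arrays keeps only replicate 1 of each LPS group. A call lost in that setting is thus not read as dependence on small RNA signal. All measured markers of dendritic cells (9), macrophages (9), monocytes (5) and neutrophils (12) were above a low-signal reference, the 90th percentile of 1394 odorant and vomeronasal receptor genes (log2 signal 6.32). At or under it were 5 of 6 T, B and NK cell, 3 of 8 neuronal, 3 of 10 stromal and endothelial, 2 of 7 mast cell, basophil and eosinophil, and 1 of 4 erythroid and platelet markers.

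The probe set of the targeted gene separated the genotypes. Arc had a log2 signal of 9.47, 9.24 and 9.46 in untreated WT cells, 9.39, 9.21 and 9.62 in LPS-treated WT cells, 7.81, 7.88 and 8.05 in untreated KO cells, and 8.03, 7.68 and 8.02 in LPS-treated KO cells. Every KO array was below every WT array. Over both treatments Arc was lower in KO cells by a log2 difference of -1.49 (SE 0.12, adjusted p = 0.0015 by limma). After LPS the difference was -1.50 (adjusted p = 0.0059), and without LPS it was -1.48 (adjusted p = 0.177, and 0.00080 with 12 separate samples). The call after LPS was lost without WT LPS replicate 1 (adjusted p = 0.056), with only the groups compared in the fit (0.055) and without the 4 arrays of low small RNA signal (0.399), and the lowest value over the settings run was 0.00015. Over both treatments it was lost without those 4 arrays (log2 -1.42, adjusted p = 0.195, the highest over the settings run). The stretch of the transcript under this probe set is not known here, and the signal left in KO cells is not read as transcript.

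LPS raised 2 of these genes, Snx18 and Ehd1. Snx18, a sorting nexin that binds dynamin and bends membranes, rose in both genotypes. Ehd1, an ATPase of the recycling endosome, rose in KO cells and over both genotypes. Synj1, which encodes synaptojanin 1, had log2 differences of 0.40 in WT and 0.51 in KO cells that did not pass the adjusted threshold of 0.05. No member fell by the same test.

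Promoters of the members that rose, or came nearest to it, were taken from RefSeq (assembly GRCm38.p6) to show the sequence in front of these genes. Each runs from 250 bases before to 50 after a transcript start, on the minus strand, 5′ to 3′. The Snx18 promoter is at chr13:113618515-113618814 and the promoter of a Synj1 transcript at chr16:91011046-91011345. Capitals mark TGACG, the core of the cyclic AMP response element, found at position -63 from the start in this Synj1 promoter.
Snx18: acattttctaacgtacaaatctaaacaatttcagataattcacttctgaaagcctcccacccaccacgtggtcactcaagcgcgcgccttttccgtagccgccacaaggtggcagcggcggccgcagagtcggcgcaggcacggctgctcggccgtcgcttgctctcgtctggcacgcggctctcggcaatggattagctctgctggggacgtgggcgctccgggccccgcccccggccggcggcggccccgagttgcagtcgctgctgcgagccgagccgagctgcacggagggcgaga
Synj1: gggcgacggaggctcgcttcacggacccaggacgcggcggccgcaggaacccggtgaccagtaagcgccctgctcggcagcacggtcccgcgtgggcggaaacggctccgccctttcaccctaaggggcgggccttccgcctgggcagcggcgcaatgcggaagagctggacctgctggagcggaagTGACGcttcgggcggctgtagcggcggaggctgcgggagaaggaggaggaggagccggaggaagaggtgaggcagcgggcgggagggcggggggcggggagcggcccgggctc
Both strands were searched for the AP-1 motif TGANTCA, for TGACG and for the NF-kB motif, and matches of different motifs may share letters. The Snx18 promoter held none of the 3. A promoter of another Synj1 transcript, at chr16:91011259-91011558, also held none. Of 32851 promoters of this length, 7.81% held the AP-1 motif, 20.8% held TGACG and 8.46% held the NF-kB motif. Of the 42 promoters found for 32 members, 0 held AP-1, 14 (33.3%) held TGACG and 6 (14.3%) held NF-kB. Ehd1 was not among them.

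Snx18 had the smallest adjusted p of the members in each LPS comparison. In WT cells its log2 signal was 8.91, 8.96 and 8.97 without LPS and 9.83, 9.76 and 9.93 with LPS. In KO cells it was 9.02, 9.02 and 9.14 without LPS and 9.95, 9.90 and 9.85 with LPS. All 6 LPS arrays were above all 6 untreated arrays. The LPS groups of the 2 genotypes overlapped, while the untreated KO arrays were above the untreated WT arrays by 0.11 on average (SE 0.14, adjusted p = 0.970). The rise was 1.86-fold in WT cells (log2 0.89, SE 0.14, adjusted p = 0.0097 by limma) and 1.79-fold in KO cells (log2 0.84, SE 0.098, adjusted p = 0.000643). Over both genotypes it was 1.82-fold (log2 0.87, SE 0.085, adjusted p = 0.000138). The response of KO cells minus that of WT cells was -0.05 on the log2 scale, with a 95% interval of -0.43 to 0.32 (adjusted p = 0.975). The call in WT cells was lost when only the untreated and LPS-treated WT groups were fitted (log2 0.89, adjusted p = 0.072) and without the arrays of low small RNA signal (log2 0.88, adjusted p = 0.135), within a range of 3.44e-05 to 0.135 over 25 other settings. The call in KO cells was kept under all 25, with log2 values from 0.81 to 0.89. Without the arrays of low small RNA signal, each LPS group keeps only replicate 1.

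Snx9, the other sorting nexin of this kind on the list, which also couples dynamin to actin assembly, showed smaller differences. Its log2 signal in WT cells was 9.42, 9.48 and 9.44 without LPS and 9.68, 9.94 and 9.60 with LPS, and in KO cells 9.56, 9.69 and 9.70 without LPS and 9.43, 9.83 and 9.77 with LPS. The WT groups did not overlap and the KO groups did, but the untreated WT arrays, counted as 1 sample, spanned only 0.065. The untreated KO arrays spanned 0.148, so overlap is not compared between genotypes. The LPS difference was 0.29 in WT cells (SE 0.19, adjusted p = 0.763 by limma) and 0.03 in KO cells (SE 0.14, adjusted p = 0.941), and neither passed.

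Ehd1 had a log2 signal of 10.36, 10.49 and 10.37 in untreated WT cells and 11.06, 10.71 and 10.72 after LPS. In KO cells it was 10.38, 10.36 and 10.39 without LPS and 10.93, 10.71 and 10.89 with LPS. Each LPS array was above each untreated array, and the values of the 2 genotypes overlapped under both treatments. Ehd1 rose 1.38-fold in KO cells (log2 0.46, SE 0.12, adjusted p = 0.0485 by limma). Over both genotypes the log2 difference was 0.44 (SE 0.10, adjusted p = 0.0287). In WT cells it was 0.42 (SE 0.17, adjusted p = 0.407, and 0.0313 with 12 separate samples), so the difference there was of like size but did not pass. The difference between the responses was 0.04 (95% interval -0.42 to 0.50, adjusted p = 0.982).

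The Ehd1 calls lay near the threshold. In KO cells 13 of 25 other settings ended the call, with adjusted p from 0.0177 to 0.362 over all of them. Leaving out any of KO untreated replicates 1, 2 and 3, KO LPS replicates 1 and 3, and WT LPS replicates 2 and 3 was among them. Over both genotypes 7 of 24 settings ended it (adjusted p from 0.00166 to 0.348), among them leaving out each of the KO untreated replicates or KO LPS replicate 3. With the replicate number as a block the adjusted p in KO cells was 0.0258. A second Ehd1 probe set had the same mean direction, with log2 differences of 0.44 in WT cells (SE 0.37) and 0.46 in KO cells (SE 0.26), and did not pass (adjusted p = 0.872 and 0.362 by limma). In WT cells it was at 8.55, 8.56 and 8.44 without LPS and 9.63, 8.48 and 8.77 with LPS, so these groups overlapped and replicate 1 stood highest. In KO cells it was at 8.96, 8.77 and 8.77 without LPS and 9.65, 8.99 and 9.24 with LPS.

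Synj1 had a log2 signal of 10.13, 10.09 and 10.01 in untreated WT cells and 10.36, 10.49 and 10.58 after LPS. In KO cells it was 10.31, 9.83 and 10.29 without LPS and 10.59, 10.60 and 10.79 with LPS. Within each genotype the groups did not overlap. The difference was 0.51 in KO cells (SE 0.14, adjusted p = 0.0626 by limma) and 0.40 in WT cells (SE 0.20, adjusted p = 0.581). Over both genotypes it was 0.46 (SE 0.12, adjusted p = 0.055). Synj1 passed with the replicate number as a block, in KO cells (adjusted p = 0.0322) and over both genotypes (adjusted p = 0.0275), and with 12 separate samples (0.0269 and 0.00433). Its adjusted p ran from 0.0235 to 0.28 in KO cells and from 0.0043 to 0.373 over both genotypes across the other settings, and leaving out WT untreated replicate 1 gave 0.0472 over both.

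**Figure D1:**
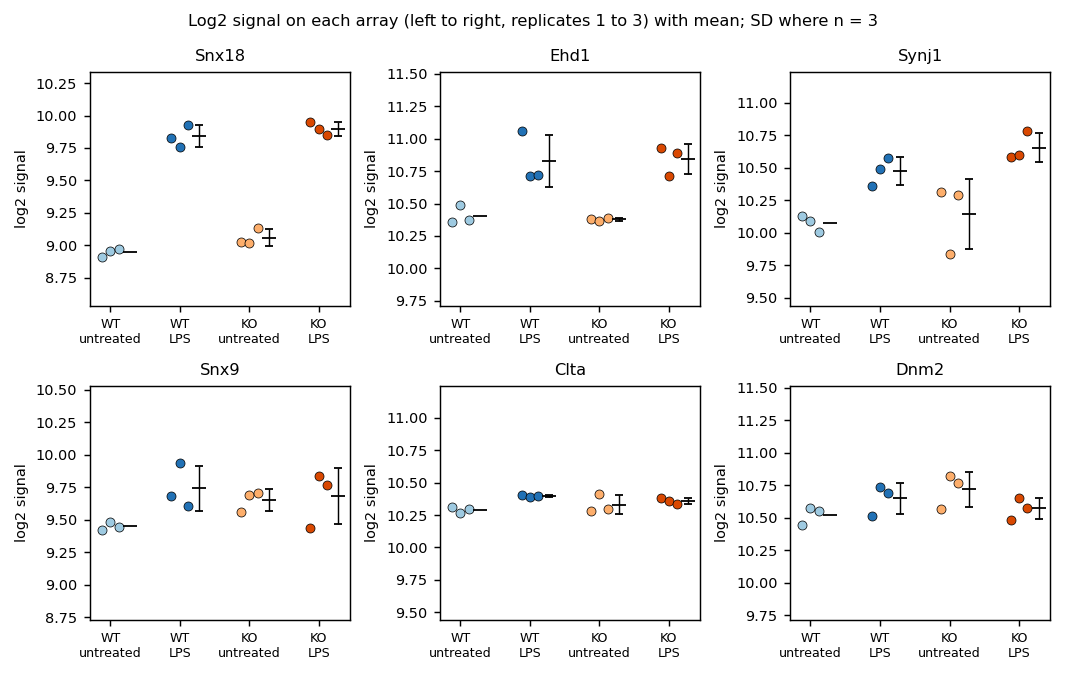
Log2 signal (y axis) of 6 members on each of the 12 arrays, by genotype and treatment (x axis), with replicates 1 to 3 from left to right as points, the group mean as a dash and the SD over 3 arrays as a bar except in untreated WT cells, counted as 1 sample. Each y axis spans 1.8 units around the member's own mean. Snx18, Ehd1 and Synj1 sit higher on the LPS arrays of both genotypes, and Snx9, Clta and Dnm2 show smaller shifts.

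By count, 1 of 36 members passed in WT cells, where 1.57% of all genes tested did. In KO cells 2 of 36 passed, against 5.91% of all genes, and over both genotypes 2 of 36 passed, against 6.22%. With 12 separate samples the counts were 2 in WT cells (8.64% of all genes), 3 in KO cells (9.11%) and 3 over both (14.5%). With the replicate number as a block, 3 members passed in KO cells (10.4% of all genes) and 3 over both genotypes (10.1%). These shares are near the background, so the counts do not set the members apart. At an unadjusted p under 0.05, 2 members were found in WT cells (9.91% of all genes) and 4 in KO cells (20.3%).

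Markers of several cell types moved with LPS too. Of the monocyte markers, 3 of 5 measured fell in KO cells and 1 of 5 in WT cells, and of the neutrophil markers 6 of 12 and 1 of 12, where 2.93% of all genes fell in KO and 0.234% in WT cells. Counts are not compared between genotypes, since untreated WT cells count as 1 sample. Monocyte markers that passed only in KO cells differed by -1.48 (Chil3) and -0.94 (Ms4a6c), and by -1.36 and -0.87 in WT cells. Such neutrophil markers differed by -1.69 (Ngp), -1.53 (Ltf), -1.49 (S100a8), -1.09 (S100a9) and -0.98 (Mmp8). In WT cells these were -1.96, -1.72, -1.89, -1.61 and -1.01. All passed in WT cells with 12 separate samples (adjusted p 0.00060 to 0.013 by limma). Of the mast cell, basophil and eosinophil markers 1 of 7 fell in each genotype, and 1 of 9 macrophage and 1 of 10 stromal and endothelial markers fell in KO cells. Of the 9 dendritic cell markers, 2 rose in KO cells (2.98% of all genes) and 1 in WT cells (1.34%): Zbtb46, a transcription factor of classical dendritic cells, in both, and Irf4 in KO cells. Irf4 differed by 0.58 in KO and 0.63 in WT cells. The median log2 signal of the monocyte list was 10.38 to 10.52 on untreated WT arrays and 9.32 to 9.72 on LPS-treated WT arrays, and 10.01 to 11.06 against 8.89 to 9.51 in KO cells. For the neutrophil list it was 7.64 to 7.82 against 6.74 to 7.85 in WT cells, and 7.25 to 7.95 against 6.95 to 7.48 in KO cells. Every marker of both lists had a mean above the low-signal reference. In bulk samples, fewer cells of a type and less RNA per cell cannot be told apart, and the part of these shifts in the values of the members was not tested.

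The clathrin coat genes showed no change that passed. Cltc, the heavy chain that forms the coat lattice, had a log2 signal of 11.63, 11.66 and 11.67 in untreated WT cells, 11.69, 11.90 and 11.84 in LPS-treated WT cells, 11.62, 11.71 and 11.73 in untreated KO cells and 11.58, 11.85 and 11.69 in LPS-treated KO cells. The LPS arrays of WT cells were all above the untreated ones, and the KO groups overlapped. The untreated arrays of Cltc spanned 0.03 in WT cells, counted as 1 sample, and 0.10 in KO cells. Its LPS difference was 0.16 in WT cells (SE 0.15, adjusted p = 0.910) and 0.02 in KO cells (SE 0.11, adjusted p = 0.954). The light chain gene Clta differed by 0.11 in WT and 0.03 in KO cells, and Cltb by 0.27 and 0.05.

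The 5 AP-2 subunits all had negative LPS differences in KO cells, where 58.5% of all genes above the low-signal reference did, and none of them passed. Ap2a2, an alpha subunit that binds clathrin-coat accessory proteins, had a log2 signal of 9.49, 9.68 and 9.59 in untreated KO cells and 9.07, 9.48 and 9.21 with LPS. In WT cells it was 9.37, 9.42 and 9.38 without LPS and 9.23, 9.37 and 9.12 with LPS. LPS arrays were below untreated arrays in both genotypes, and the highest LPS array all but reached the lowest untreated one in each. The difference was -0.33 in KO cells (SE 0.13, adjusted p = 0.174) and -0.15 in WT cells (SE 0.18, adjusted p = 0.948). Over both genotypes it passed only with 12 separate samples and the replicate block together, where 17.2% of all genes passed.

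Among the other subunits, Ap2m1, which reads sorting signals in cargo tails, differed by -0.25 in KO and 0.06 in WT cells. Ap2s1, the small subunit, differed by -0.17 and 0.05, Ap2b1, the clathrin-binding beta subunit, by -0.13 and -0.05, and Ap2a1 by -0.02 and 0.14. Of the adaptors, the epsin gene Epn1 differed by 0.03 in KO and 0.08 in WT cells, Epn2 by 0.15 and -0.0014, and Eps15, a scaffold of early coated pits, by -0.15 and -0.11. Hip1, which links clathrin to actin, differed by -0.29 and 0.05, and Dab2, an adaptor for receptors of the LDL receptor family, by 0.06 and 0.18. Over these 13 genes the smallest adjusted p was 0.174 in KO and 0.811 in WT cells.

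The dynamins and their partners, Snx18, Synj1 and Snx9 aside, had LPS differences from -0.04 (Dnm1) to 0.26 (Sh3gl1) in WT cells and from -0.15 (Sh3gl3) to 0.19 (Dnm1) in KO cells, and none passed. Dnm2, the dynamin of most tissues, had a log2 signal of 10.44, 10.57 and 10.55 in untreated WT cells, 10.52, 10.74 and 10.69 in LPS-treated WT cells, 10.56, 10.82 and 10.77 in untreated KO cells and 10.49, 10.65 and 10.58 in LPS-treated KO cells. Each pair of the 4 groups overlapped. Its LPS difference was 0.13 in WT cells (SE 0.16) and -0.15 in KO cells (SE 0.11), with adjusted p of 0.951 and 0.516. Dnm1, the dynamin best known from nerve terminals, differed by -0.04 in WT and 0.19 in KO cells, and Dnm3 by 0.08 and 0.10.

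Of the endophilins, which sense and induce curvature, Sh3gl1 differed with LPS by 0.26 in WT and -0.02 in KO cells. Sh3glb1, an endophilin B also tied to autophagy, had log2 signals of 11.63 to 11.76 in untreated WT, 11.71 to 11.84 in LPS-treated WT, 11.69 to 11.84 in untreated KO and 11.69 to 11.95 in LPS-treated KO cells, and all groups overlapped. The scaffold genes Itsn1 and Itsn2 differed by 0.12 and 0.08 in WT and by -0.13 and -0.03 in KO cells, and Bin1, an amphiphysin, by 0.21 and -0.0045. Sh3gl3 and Amph were at or under the low-signal reference, with means of 5.95 and 5.70, and Camk2b (6.36) and Dlg4 (6.34) were just above it, so no fold of these 4 is read as a ratio of transcripts.

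Beside Ehd1, the recycling and caveolar genes showed no change that passed. Ehd4, a relative of Ehd1 on early endosomes, had a log2 signal of 8.30, 8.27 and 8.27 in untreated WT, 8.41, 8.53 and 8.41 in LPS-treated WT, 8.21, 8.67 and 8.43 in untreated KO and 8.01, 8.64 and 8.26 in LPS-treated KO cells. The WT groups did not overlap and the KO groups did, but the untreated WT arrays, counted as 1 sample, spanned 0.04 against 0.47 in untreated KO cells. The LPS difference of Ehd4 was 0.17 in WT (SE 0.24) and -0.14 in KO cells (SE 0.17), with adjusted p of 0.962 and 0.714 by limma. Cav1, the scaffold of caveolae, was the most variable member among replicates after LPS, at 6.78, 7.70 and 6.86 in WT and 6.34, 7.11 and 7.09 in KO cells.

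The neuronal Arc partners were measured but did not respond by the test. Camk2g, the CaMKII subunit gamma, had a log2 signal of 8.62, 8.67 and 8.83 in untreated WT, 8.89, 9.02 and 8.94 in LPS-treated WT, 8.79, 9.10 and 9.02 in untreated KO and 8.66, 9.18 and 9.06 in LPS-treated KO cells. The WT groups did not overlap and the KO groups did, but the untreated WT arrays, counted as 1 sample, spanned 0.21 against 0.31 in untreated KO cells. The LPS difference of Camk2g was 0.24 in WT (SE 0.20, adjusted p = 0.864 by limma) and -0.0012 in KO cells (SE 0.14, adjusted p = 0.999). Stim1, a calcium sensor of the endoplasmic reticulum, differed by 0.20 in WT and -0.10 in KO cells, and Camk2d, the delta subunit, by 0.22 and -0.12.

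**Figure D2:**
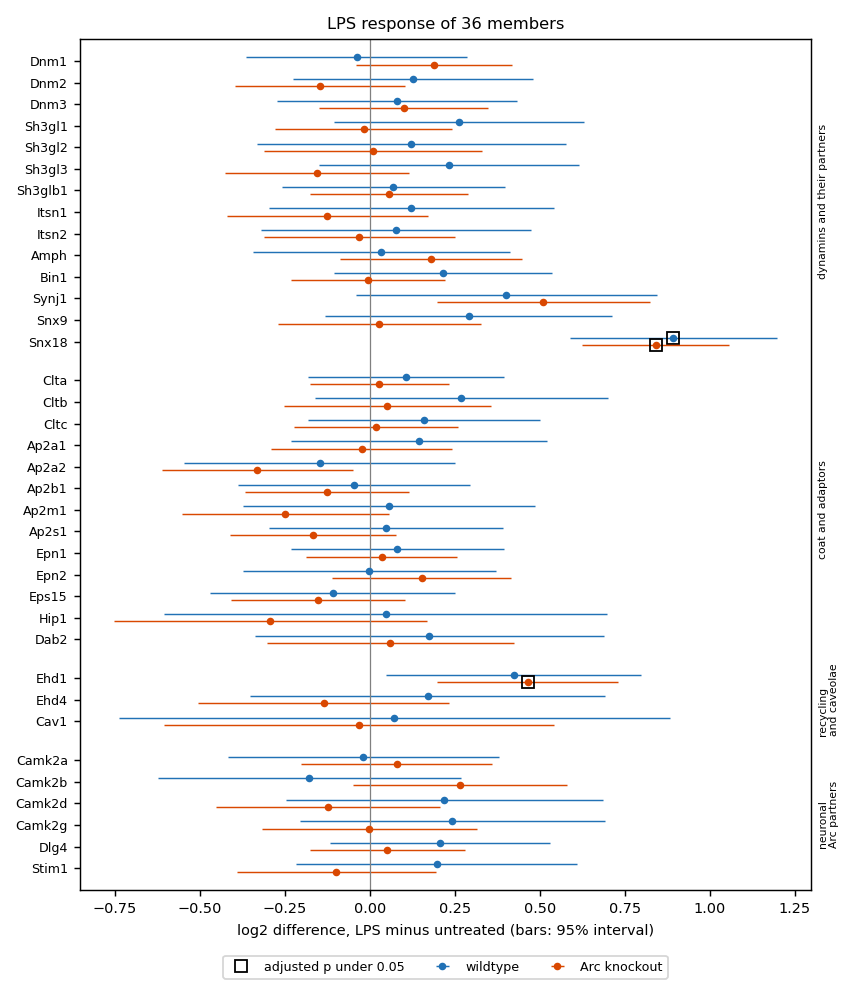
Log2 difference between LPS-treated and untreated cells (x axis) for the 36 measured members (y axis, grouped by role) in WT (blue) and KO cells (orange), with 95% intervals from limma. Open squares mark an adjusted p under 0.05: Snx18 in both genotypes and Ehd1 in KO cells.

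Small differences with LPS were mostly upward in WT cells and evenly split in KO cells. In WT cells 29 of 36 members were higher with LPS, with a median log2 difference of 0.12 against -0.01 over all genes tested, and 15 members had all LPS arrays above all untreated arrays (16.2% of all genes, and 22.7% of those above the low-signal reference) and 2 had them below (13.9% and 13.0%). In KO cells 18 members were higher and 18 lower, with a median of 0.0038 against -0.0037 over all genes, and 4 members lay apart upward (10.3% and 10.9%) and 2 downward (14.8% and 21.0%). Of the 34 members above the low-signal reference, 27 were higher with LPS in WT cells, where 55.3% of all such genes were, and 17 in KO cells, where 41.5% were.

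No member passed the test between KO and WT cells. Without LPS 0 of 36 passed (0.00451% of all genes), after LPS 0 of 36 (0.00902%) and over both treatments 0 of 36 (0.0135%), by limma. With 12 separate samples the counts were 0 as well (0.437%, 0.00902% and 0.0271% of all genes), and so were they with the replicate block (0.0135%, 0.0180% and 0.0135%). At an unadjusted p under 0.05, 0 members were found in each of the 3 comparisons, where 4.04%, 3.95% and 3.30% of all genes were. All 36 intervals of 95% included 0 in each of the 3 comparisons. Over both treatments all 36 intervals lay within 2-fold in either direction and 35 within 1.5-fold, Cav1 being the exception. After LPS the numbers were 36 and 34, and without LPS, where WT counts as 1 sample, 36 and 25.

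Among the genes with the smallest p in untreated cells was Dnm1. Its log2 signal was 7.47, 7.40 and 7.58 in untreated WT cells and 7.08, 7.30 and 7.34 in untreated KO cells, and 7.43, 7.40 and 7.50 against 7.42, 7.48 and 7.39 after LPS. The untreated KO arrays were all lower than the untreated WT arrays, and the LPS groups overlapped. The difference was -0.24 without LPS (SE 0.15, adjusted p = 0.970) and -0.02 after LPS (SE 0.10, adjusted p = 0.999).

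Camk2d had a log2 signal of 8.13, 7.91 and 7.83 in untreated WT and 8.15, 8.41 and 8.28 in untreated KO cells, and 8.07, 8.39 and 8.07 against 7.93, 8.43 and 8.11 after LPS. The untreated groups did not overlap, by a gap between 8.13 and 8.15, and the LPS groups overlapped. The difference was 0.32 without LPS (SE 0.21, adjusted p = 0.970), -0.02 after LPS (SE 0.15, adjusted p = 0.999) and 0.15 over both (SE 0.13). Sh3gl3, at low signal, was at 5.79, 5.86 and 5.71 in untreated WT and 6.13, 5.98 and 6.13 in untreated KO cells, a difference of 0.29 (SE 0.17, adjusted p = 0.970).

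After LPS, Synj1 was the 1 member with every KO array above every WT array, where 2.81% of all genes were (1.53% of those above the low-signal reference), and Clta the 1 member with every KO array below, where 4.96% were (4.56%). The Synj1 arrays lay apart only between 10.58 and 10.59, and the difference was 0.18 (SE 0.14, adjusted p = 0.999). Clta was at 10.40, 10.39 and 10.40 in WT and 10.38, 10.35 and 10.34 in KO cells, a difference of -0.04 (SE 0.09, adjusted p = 0.999). Camk2b, close to the low-signal reference, was at 6.26, 6.15 and 6.47 in WT and 6.58, 6.57 and 6.27 in KO cells, a difference of 0.18 (SE 0.14), with overlapping groups. Bin1 was at 9.81, 9.65 and 9.80 in WT and 9.52, 9.74 and 9.62 in KO cells, a difference of -0.12 (SE 0.10), also with overlap.

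**Figure D3:**
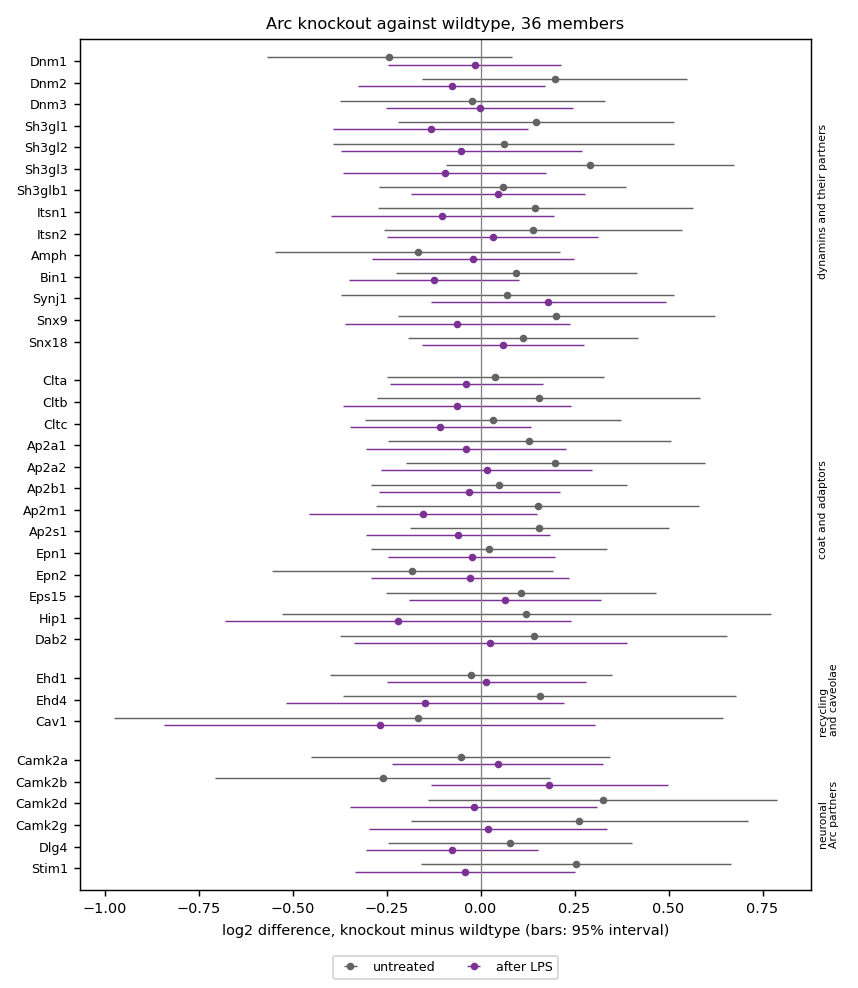
Log2 difference between KO and WT cells (x axis) for the 36 measured members (y axis, grouped by role), without LPS (grey) and after LPS (purple), with 95% intervals from limma. Every interval includes 0.

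In untreated cells 28 of 36 members had a higher mean in KO cells, with a median of 0.11 against 0.02 over all genes, and after LPS 25 of 36 had a lower mean, with medians of -0.03 and -0.02. Of the 34 members above the low-signal reference, 27 were higher in untreated KO cells, where 69.7% of all such genes were, and 23 were lower after LPS, where 62.4% were. In untreated cells 10 members had all KO arrays above all WT arrays (17.7% of all genes), 9 of them among the 34 above the reference, where 26.2% of such genes did. For 2, Dnm1 and Epn2, they were below (11.6% of all genes and 7.03% of those above the reference). The LPS response of WT cells, the genotype difference of untreated cells and the interaction all use the untreated WT arrays, so their values are not independent of each other.

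No member passed the test of a difference in LPS response between genotypes. By limma 0 of 36 members passed (0.00% of all genes), and 0 had an unadjusted p under 0.05, where 982 genes did (4.43%). The response of KO cells minus that of WT cells had a median of -0.13 over the members and -0.06 over all genes, and it was below 0 for 27 of the 34 members above the low-signal reference, where 73.0% of all such genes were. The most negative value was that of Sh3gl3 (-0.39, 95% interval -0.86 to 0.08) and the most positive that of Camk2b (0.44, -0.10 to 0.99). For Dnm2 it was -0.27 (-0.71 to 0.16). These intervals are wide, since 34 of the 36 lay within 2-fold and 11 within 1.5-fold.

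Replicates of a group differed together across many members. Within the LPS-treated KO arrays, replicate 2 was the highest for 22 of 36 members and replicate 1 the lowest for 19, where 45.5% and 45.1% of genes above the low-signal reference did the same. Within untreated KO arrays, replicate 1 was the lowest for 23 of 36 members (38.3% of such genes). The member counts take all 36 members, 34 of which were above this reference, and the shares only genes above it. The median of the dendritic cell markers was 10.25 on KO LPS replicate 1 and 11.49 on KO LPS replicate 2, and 10.41 on KO untreated replicate 1 against 11.00 and 10.98 on replicates 2 and 3. On WT LPS replicates 1 and 2 it was 10.69 and 11.49. There, replicate 1 was the highest for 13 members and the lowest for 13 (37.5% and 35.7% of such genes). Replicate 2 was the highest for 14 and the lowest for 13 (33.7% and 29.0%). The macrophage median was 10.47, 10.635 and 10.44 on KO untreated replicates 1 to 3. The part of this spread in the values of the members was not tested.

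**Figure D4:**
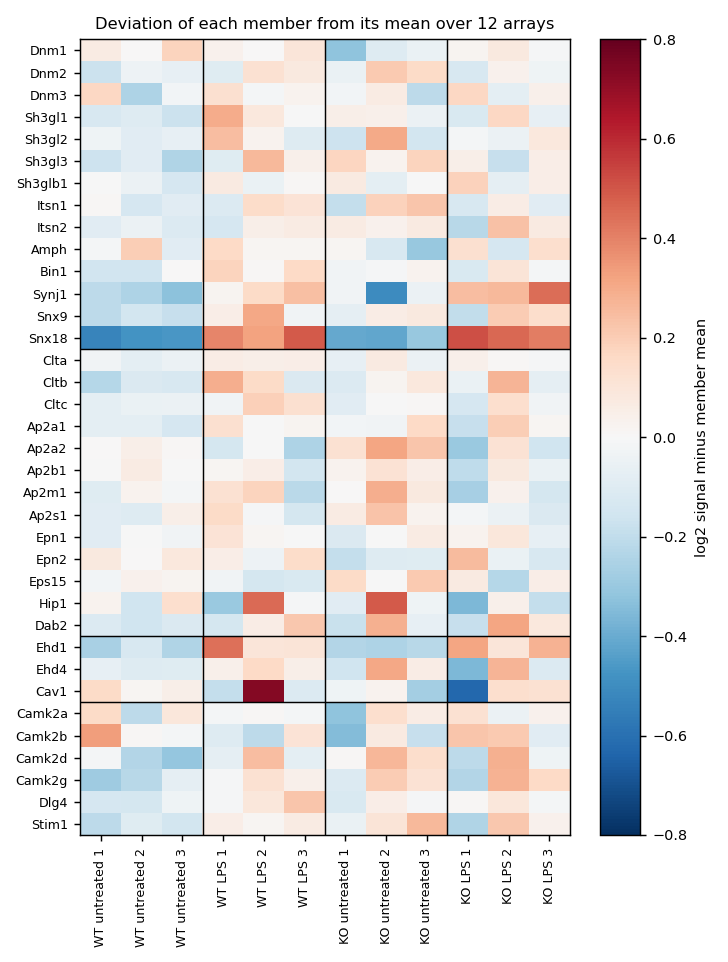
Deviation of the log2 signal of each of the 36 members (rows, grouped by role) from its mean over the 12 arrays, by array (columns), on a colour scale from -0.8 (blue) to 0.8 (red). Snx18, Ehd1 and Synj1 are higher on average after LPS in both genotypes, and KO LPS replicates 1 and 2 differ from each other over many rows.

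Of the members with several probe sets, Ehd1 had 2, Dnm3 had 2 and Sh3gl2, an endophilin best known from nerve terminals, had 3. The Sh3gl2 probe sets disagreed on whether the gene was measured above the low-signal reference, since 1 was above it (mean 10.52) and the others were under it (means 6.08 and 5.01). By the highest probe set, Sh3gl2 differed with LPS by 0.12 in WT cells (SE 0.21) and 0.01 in KO cells (SE 0.15), and whether it is expressed in these cells rests on that probe set. The second Dnm3 probe set was under the reference too, with a mean of 5.74.

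**Figure D5:**
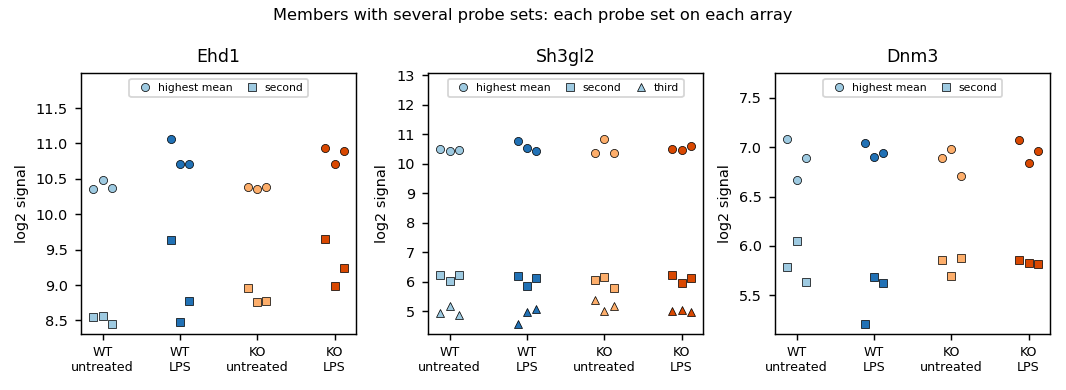
Log2 signal (y axis) of each probe set of Ehd1, Sh3gl2 and Dnm3 on each of the 12 arrays by group (x axis), with circles for the probe set of the highest mean, squares for the second and triangles for the third. Both Ehd1 probe sets are higher on average after LPS, and the lower probe sets of Sh3gl2 and Dnm3 lie under a log2 signal of 6.32.

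Further genes of these pathways were taken as 4 lists, chosen with earlier results of these data known. In KO cells, where 5.91% of all genes passed, 1 of 24 measured coat and adaptor genes rose, Ston2, which encodes the adaptor stonin 2. Its log2 signal was 6.45, 6.43 and 6.61 in untreated KO and 6.76, 7.11 and 7.04 in LPS-treated KO cells, a difference of 0.47 (SE 0.12, adjusted p = 0.0461 by limma), and in WT cells it was 0.45 (SE 0.17, adjusted p = 0.368). Of 22 genes of membrane bending, scission and phosphoinositides, Pip5k1a, a kinase that makes the phosphoinositide AP-2 binds, rose over both genotypes by 0.48 (SE 0.11, adjusted p = 0.0219), where 6.22% of all genes passed. Within a genotype it did not pass (0.56 in WT, adjusted p = 0.196, and 0.39 in KO cells, adjusted p = 0.097). Of 13 recycling, caveolar and flotillin genes, Cav2, the partner of caveolin 1, fell in KO cells, with a log2 signal of 8.65, 8.65 and 8.57 without LPS and 7.97, 8.19 and 7.98 with LPS, a difference of -0.58 (SE 0.12, adjusted p = 0.0201). In WT cells it was -0.24 (SE 0.17, adjusted p = 0.807). Over both genotypes Ston2 (0.46, SE 0.10) and Cav2 (-0.41, SE 0.11) passed too, where 6.22% of all genes did. Of 13 other reported Arc partners, 0 passed with LPS by limma, with 1 at an unadjusted p under 0.05 in KO cells (20.3% of all genes). No gene of the 4 lists passed in a genotype comparison or in the interaction. There, 1 recycling gene after LPS (3.95% of all genes) and 1 Arc partner over both treatments (3.30%) had an unadjusted p under 0.05.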

How the data were processed

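Total RNA was labelled with a whole-transcript kit and hybridised to Affymetrix arrays, 12 in all. The authors deposited a log2 value for each probe set on each array, on a normalized scale. How background was corrected and which normalization was applied was not stated in the labels used here. The submitters' processing notes give limma as the tool and no version number. A single gene was carried by 23521 of the 34390 probe sets, several genes by 1814 and none by 9055, and only the first kind was used. For 1082 genes with several, the highest mean was taken, which left 22180 genes.

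Comparisons were made in R 4.3.3 with limma 3.58.1 (a mean for each group, eBayes, two-sided, Benjamini-Hochberg over all genes, threshold 0.05) on 10 samples, since the 3 untreated WT arrays were averaged. The single WT sample is assumed to vary like the others. The script was tested on simulated data.

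Members and lists were chosen with earlier results of these data known. Array values are given for members past the threshold, for up to 3 of smallest p per comparison and for 1 little-changed member per role. Those of Sh3gl3 are given only without LPS, and those of Camk2b and Bin1 only after LPS. Snx9, Clta, Ap2a2 and Cav1 were added after their values were seen.

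Residuals of same-numbered arrays correlated at 0.381, 0.299 and 0.196 between the KO groups and 0.338, 0.358 and 0.228 between the LPS groups. Between untreated KO and LPS-treated WT arrays they correlated at 0.145, 0.196 and 0.175. Same-numbered arrays of these groups thus varied together in the data, while the labels name no pairing, and the source of this was not tested. With untreated WT arrays, pairing was not established. The number of arrays limits the precision. Besides this setting, 25 others were run, 12 of them leaving out 1 array.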

Additional observations from a re-analysis of the deposited data

How the results depend on the processing

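In WT cells the count of members changed by LPS was 1, and it was 2 with 12 separate samples, alone or with the replicate block, and 0 with only the groups compared or without the arrays of low small RNA signal. In KO cells the count was 2, and it was 3 with 12 separate samples, with the replicate block or with both together. With both together 11.0% of all genes passed in WT cells and 11.4% in KO cells. The count in KO cells was 1 after quantile normalization once more, with the mean over probe sets, with only the groups compared and without the low small RNA arrays. It was also 1 with the second probe set, an alternative chosen after seeing the data. Leaving out 1 array at a time gave 1 to 2. Over both genotypes the count was 2, and it was 3 with 12 separate samples or with the replicate block. With the replicate block and 12 samples together it was 4 (Snx18, Ehd1, Synj1 and Ap2a2), where 17.2% of all genes passed. Over both genotypes it was 1 after quantile normalization, with the mean over probe sets and with the second probe set. Leaving out 1 array gave 1 to 3 (3 without WT untreated replicate 1). The causes of these changes were not tested. The genotype and interaction counts were 0 under each setting that could be fitted. The replicate block changed no other call of a member than those given for Synj1, and for Arc without LPS (adjusted p = 0.0286). No named value reversed its direction.

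Signal near the receptor gene reference limits Sh3gl3, Amph, Camk2b and Dlg4. The groups of 3 arrays, with untreated WT counted as 1 sample, limit the intervals, and the count of all genes called in WT cells, 349, became 1917 with 12 samples.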
